A study of Mus musculus with 51 samples.

Results

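Fetal mouse kidneys collected 12 h apart on embryonic day 19 were compared: 4 libraries at CT40 (embryonic day 19 plus 16 h) against 4 at CT28 (embryonic day 19 plus 4 h), 8 of the 51 libraries of the series. CT is the time label of the series in hours, and the pair was chosen by its labels as opposite phases of the daily cycle. All groups are wild-type C57BL/6 kidneys with no treatment named, and each library is whole-organ poly-A RNA. CT32 and CT36, the 4 h steps between the pair, and CT4 and CT16, the same clock times on embryonic day 18, had 4 libraries each and are used below. The labels name neither dams nor litters, so p-values reflect only how these samples vary, and kidneys of 1 time point may come from littermates. Clock time and age advance together here: what 12 h of the day and 12 h of development each contribute cannot be told apart in CT40 against CT28 alone.

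As background, the circadian clock is a feedback loop in which CLOCK and BMAL1 (gene Arntl) switch on Per and Cry genes, whose proteins return to repress them, while REV-ERB and ROR receptors set the level of Arntl. In adult kidney the loop and the daily pulse of glucocorticoid drive rhythms of salt and water transport. The kidney just before birth is still forming nephrons from progenitors while finished tubules take up transport, and hormones of late gestation, glucocorticoid among them, prepare the organs for birth.

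Values were normalised before deposit, so sequencing depth is unknown, and values are compared between libraries within a gene, never between genes. Library totals ran from 35225077 to 35550325 at CT28 and from 34226024 to 34602275 at CT40, without overlap, and 341 to 446 genes were listed at 0 at CT28 against 218 to 332 at CT40. All 16 defining kidney markers (proximal tubule to endothelium) were above 0 in all 8 libraries, the lowest value being 628. CT40 replicate 3 stood apart in skeletal muscle genes: their summed value over 10 genes was 3859 there, against 405, 314 and 755 in the other CT40 libraries and 395 to 644 at CT28. CT40 replicate 1 held the highest sum of 10 liver genes (15820, against 9746 to 12408 in the other CT40 libraries and 8258 to 9814 at CT28), and CT28 replicate 3 the highest sum of 9 adrenal genes (704, against 182 to 211 at CT28 and 278 to 355 at CT40). The part of such tissue in other results was not tested. In whole-organ RNA, fewer cells of a type and less RNA per cell cannot be told apart.

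Of 14426 genes tested, 5870 differed between CT40 and CT28 (40.7%; limma, Benjamini-Hochberg adjusted p under 0.05). At CT40 2699 genes were higher (18.7%) and 3171 lower (22% of those tested). Most changes were small: the median fold of a called gene was 1.29, the median log2 difference of all tested genes was -0.02, and 387 genes (2.68%) were called with a log2 difference of at least 1 in size, 221 higher (1.53%) and 166 lower (1.15%). In 5311 genes (36.8%) the values of the 2 groups did not overlap. Without CT40 replicate 3 the count called was 5346.

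The largest rises past the threshold included a hormone-responsive transcription factor, a gluconeogenic enzyme and a haem-degrading enzyme. Zbtb16, a zinc-finger transcription factor induced by glucocorticoid (ENSMUSG00000066687.5, chromosome 9, 48654297 to 48836222, GRCm38), was at 73, 37, 25 and 41 at CT28 and at 315, 596, 138 and 745 at CT40. The groups did not overlap, CT40 spread from 138 to 745 among its own libraries, and the log2 difference was 3.16 ± 0.80 (SE; adjusted p = 0.00396). G6pc, which releases free glucose in the last step of gluconeogenesis (ENSMUSG00000078650.2, chromosome 11, 101367561 to 101377903), was at 456, 402, 540 and 463 at CT28 and at 3721, 3151, 3551 and 2820 at CT40. This is 7.12-fold on the deposited scale, with every CT40 library far above every CT28 library (log2 difference 2.83 ± 0.27, adjusted p = 3.43e-07).

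Hmox1, the enzyme that degrades haem, is described with the antioxidant genes below. Tmem252, a membrane protein gene, rose from a mean of 1769 to 10080 (log2 difference 2.47), Acnat2, a peroxisomal acyltransferase, by 2.46, Fga, the fibrinogen alpha chain made mainly by liver, by 2.29, and Gsta1, a glutathione transferase, by 2.27. The largest log2 difference of all belonged to Myh8, a myosin of fetal skeletal muscle, at 4.38. It was at 1, 0, 0 and 2 at CT28 and at 4, 3, 612 and 90 at CT40, so 1 library carried most of it. Without CT40 replicate 3 it did not pass (log2 difference 2.96, adjusted p = 0.0583).

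Among genes above a minimum mean (2 per 1e6 of a library's total) whose groups did not overlap, which the choice of named genes required, the largest falls were of genes at low to moderate values. Tgm5, a transglutaminase (chromosome 2, 121046111 to 121085841), had a mean of 173 ± 49.2 (SD) at CT28 and was at 24, 22, 42 and 33 at CT40, 5.71-fold lower (adjusted p = 0.000185). Vip, the vasoactive intestinal peptide (chromosome 10, 5639218 to 5647617), was at 264, 295, 292 and 223 at CT28 and at 60, 48, 57 and 48 at CT40, 5.04-fold lower (adjusted p = 1.97e-05). Gsdmc3 and Gsdmc2, neighbouring gasdermin genes on chromosome 15, fell by 2.46 and 1.83 on the log2 scale. They are close copies, so reads may be split between them. Katnal2 (a katanin-like protein), Rmi2 (a subunit of the complex that resolves recombination intermediates) and Wdr78 (an axonemal dynein protein of cilia) fell by 2.23, 1.98 and 1.80. Hes5, a Notch target of early nephrons, fell by 1.79, from a mean of 140 ± 20.1 (SD) to 44, 28, 45 and 44.

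**Figure D1:**
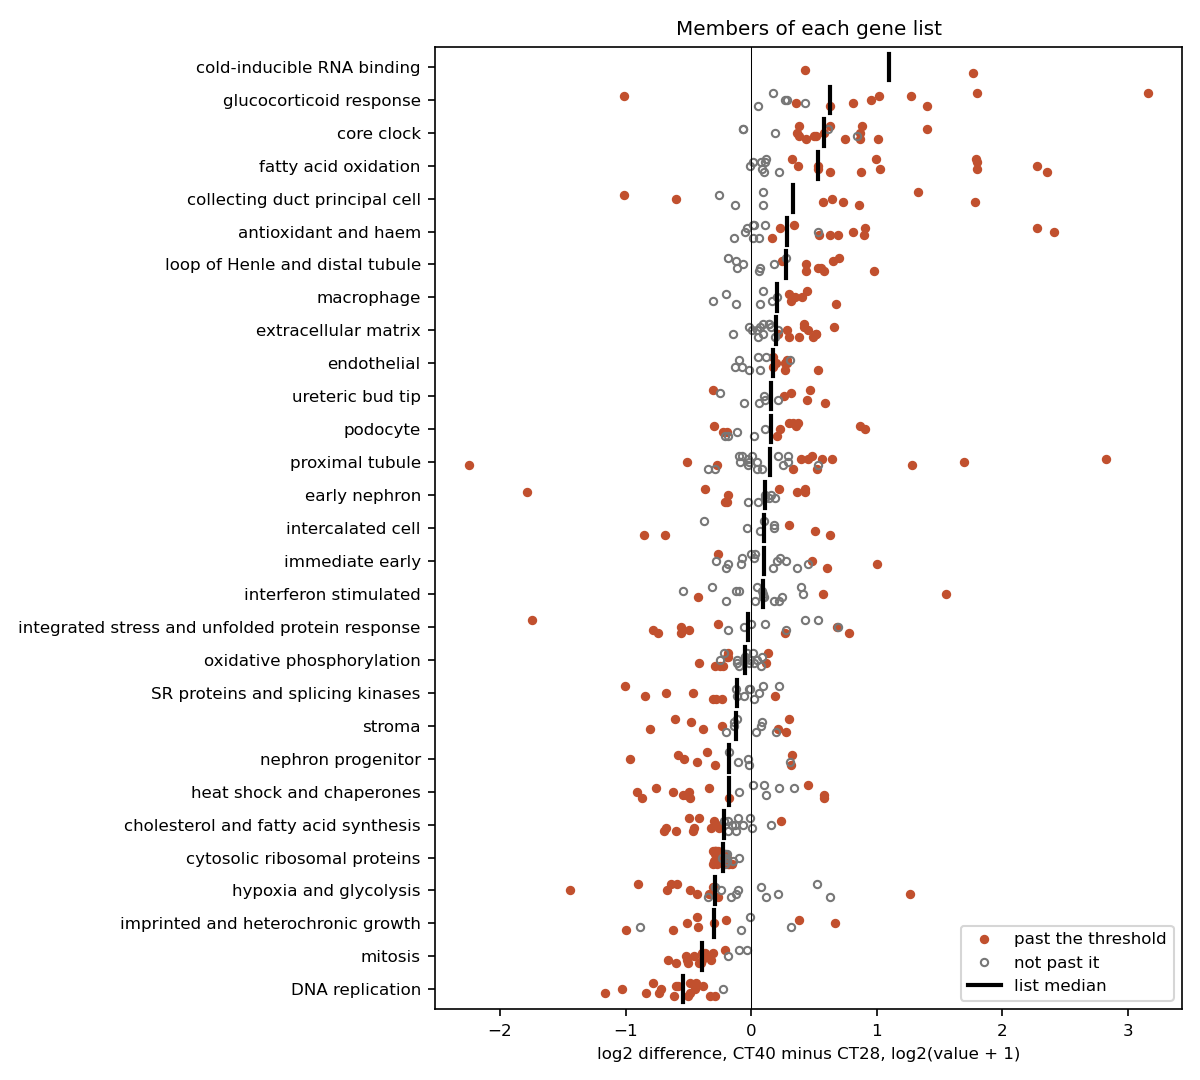
Log2 difference, CT40 minus CT28 on log2(value + 1), of each tested member of 29 gene lists, ordered by list median (black bar); filled points passed the threshold. Core clock, glucocorticoid response and fatty acid oxidation members lie to the right, with medians of 0.58, 0.63 and 0.53, and mitosis and DNA replication members lie to the left, with medians of -0.39 and -0.54.

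Genes were also read by 38 lists, with 550 tested members. Of the list genes 8 were in more than 1 list, so some changes are counted more than once. Pdk4 is in the glucocorticoid and fatty acid oxidation lists, and Hsd11b2 in the glucocorticoid and collecting duct lists. Counts of list members are to be read beside the shares of all tested genes, 18.7% higher and 22% lower at CT40. In the plot of list members, the lists whose called members were all higher were the clock, fatty acid oxidation, the loop of Henle and distal tubule, the antioxidant and haem genes, extracellular matrix, endothelium, macrophages and the cold-inducible pair. Those whose called members were all lower were mitosis, DNA replication and the ribosomal proteins.

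The core clock rose as a group. Of 19 tested members 14 were higher at CT40, 0 were lower and the median log2 difference was 0.58, against 18.7% of all genes higher and a median of -0.02. In 13 of the 19 the groups did not overlap with CT40 above, as in 17% of all tested genes. Per1, an immediate light- and hormone-responsive repressor of the loop, led the group. Its promoter is shown because it carries the E-box that CLOCK and BMAL1 bind (CACGTG, in capitals; both strands searched):

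Per1: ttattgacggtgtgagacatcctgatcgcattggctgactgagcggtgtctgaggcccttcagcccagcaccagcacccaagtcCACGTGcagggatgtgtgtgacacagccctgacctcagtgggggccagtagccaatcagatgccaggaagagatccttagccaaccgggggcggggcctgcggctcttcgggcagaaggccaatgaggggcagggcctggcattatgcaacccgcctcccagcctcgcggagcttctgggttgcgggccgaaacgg

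This is 1 of the 2 promoters of Per1 in the RefSeq table (GRCm38.p6, chr11:69098699-69098978, plus strand), from 250 bases before the transcription start to 30 after. CACGTG occurs in 7.15% of the 32851 tabulated promoters. By gene, 8.09% of the 27025 genes have it in at least 1 promoter, as do 5 of the 17 clock genes found in the table (Bhlhe41, Ciart, Cry1, Per1 and Tef). The match describes the letters only. Ciart was not analysed here for its expression.

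Per1 (ENSMUSG00000020893.17, chromosome 11, 69095217 to 69109960) was at 1420, 1264, 1056 and 1210 at CT28 and at 3031, 3487, 3107 and 3424 at CT40. The 2.64-fold rise had a log2 difference of 1.40 ± 0.32 (SE; adjusted p = 0.00166). Per2, its paralog, was at 548, 509, 487 and 472 at CT28 and at 884, 1093, 728 and 1059 at CT40 (log2 difference 0.88 ± 0.24, adjusted p = 0.00527). Neither gene overlapped between the groups. Per3 rose by 0.44 with overlapping groups, and did not pass without CT40 replicate 3 (0.38, adjusted p = 0.0561) or without CT28 replicate 2 (0.34, adjusted p = 0.0786).

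The activators of the loop and their repressors were higher at the same time. Arntl was at 526, 347, 527 and 470 at CT28 and at 817, 934, 735 and 639 at CT40, a log2 difference of 0.75 ± 0.12 (adjusted p = 2.39e-05). Clock rose by 0.50 and Npas2, which can replace CLOCK, by 0.87, both without overlap. The cryptochromes Cry1 and Cry2, which repress the activators, rose by 0.51 and 0.36, also without overlap. Activators and repressors therefore shared 1 direction in this comparison.

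The output arm was mixed. The PAR-domain factors Hlf and Tef rose by 1.01 ± 0.13 and 0.63 ± 0.10, with Hlf at 316, 271, 328 and 341 at CT28 and at 692, 647, 680 and 526 at CT40. Dbp, the third factor of that family, was at 308, 452, 390 and 364 at CT28 and at 310, 375, 430 and 331 at CT40, so its groups overlapped almost entirely (-0.06 ± 0.16, adjusted p = 0.778). Nr1d1, the REV-ERB alpha receptor that represses Arntl, was at 413, 422, 384 and 413 at CT28 and at 372, 405, 443 and 343 at CT40 (-0.07 ± 0.12, adjusted p = 0.698). Its paralog Nr1d2 rose by 0.38 with overlapping groups. Of the ROR receptors that activate Arntl, Rora rose by 0.87 without overlap, and Rorb, at 5 to 31 in these libraries, had 0.84 ± 0.52 and did not pass. Nfil3, a repressor of the same targets as Dbp, rose by 0.38. Bhlhe40 (0.19, adjusted p = 0.176) and Bhlhe41 (0.62, adjusted p = 0.106), further repressors of the loop, did not pass. Bhlhe40 passed with only CT28 and CT40 in the model (adjusted p = 0.0379), and Bhlhe41 with all 51 libraries (adjusted p = 0.0281).

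**Figure D2:**
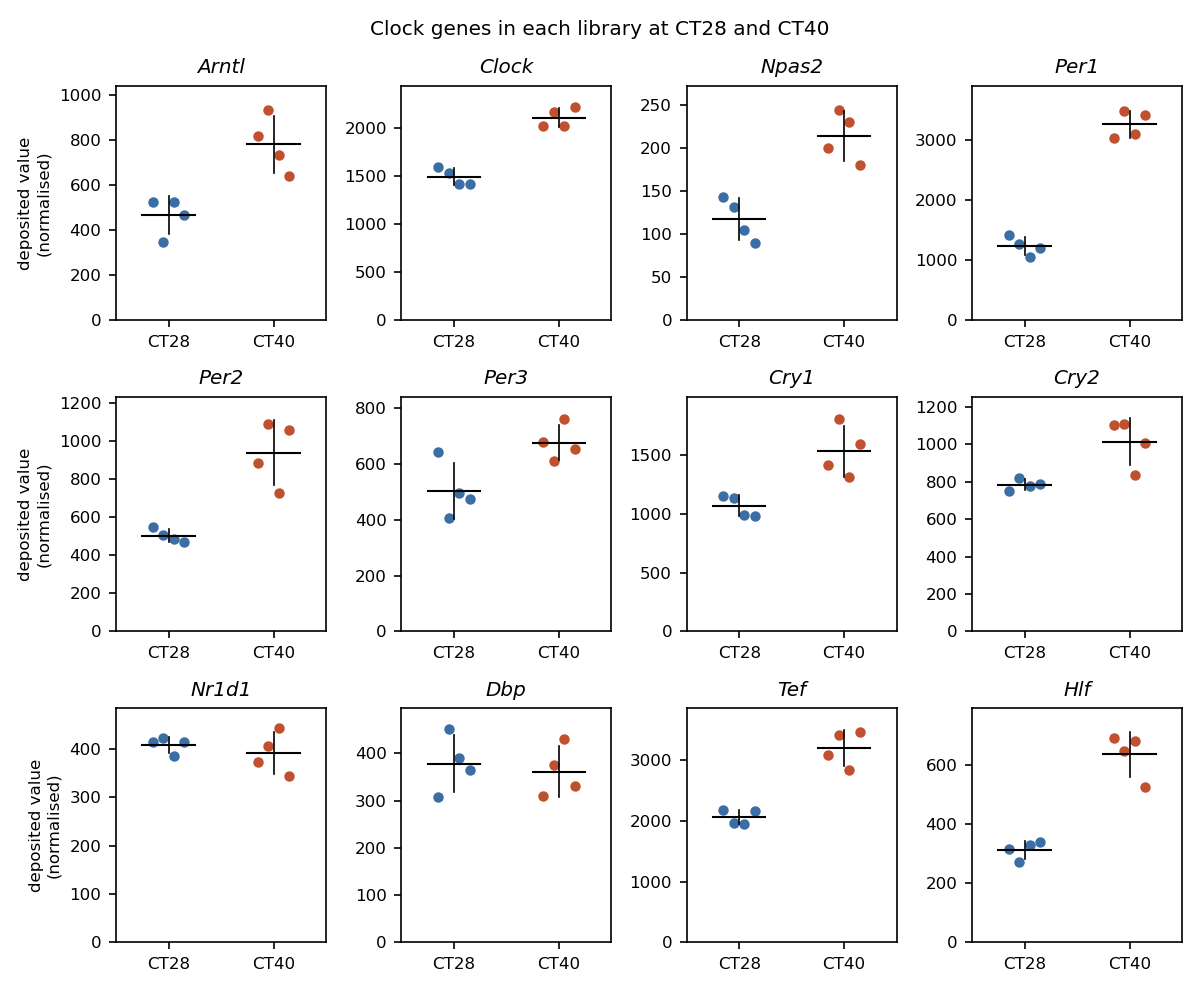
Deposited normalised value (y axis, from 0) of 12 clock genes in each of the 4 CT28 and 4 CT40 libraries; the horizontal bar is the group mean and the vertical line 1 SD. Per1, Arntl and Hlf have CT40 above CT28 with no overlap, and Nr1d1 and Dbp overlap.

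Glucocorticoid-responsive genes were higher at CT40 in 9 of 15 tested and lower in 1, against 18.7% and 22% of all genes. Their median log2 difference was 0.63. Beside Zbtb16, Klf9, a Kruppel-like factor that responds directly to the hormone, was at 696, 769, 738 and 782 at CT28 and at 1796, 2083, 1763 and 2286 at CT40. Its groups lay far apart (log2 difference 1.40 ± 0.23, adjusted p = 8.24e-05). Sgk1, the kinase that raises sodium channel activity, was at 4436, 4186, 3929 and 3855 at CT28 and at 8097, 10193, 6469 and 8905 at CT40 (1.02 ± 0.27, adjusted p = 0.00523). Fkbp5, a chaperone of the receptor, was at 1821, 1646, 1800 and 1843 at CT28 and at 3044, 4313, 2390 and 4517 at CT40 (0.96 ± 0.29, adjusted p = 0.0119). CT40 replicate 3 held the lowest CT40 value in each of Zbtb16, Klf9, Sgk1 and Fkbp5, yet above every CT28 library.

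Errfi1, a feedback inhibitor of EGF receptor signalling, rose by 1.27, and Pdk4, which restrains glucose oxidation, by 1.80 ± 0.27. Cdkn1a rose by 0.36, and the metallothioneins Mt1 and Mt2, close copies, by 0.63 and 0.81 with overlapping groups. The receptor itself, Nr3c1, had a log2 difference of 0.05 ± 0.06 and did not pass, nor did Tsc22d3 (0.43, adjusted p = 0.192), Dusp1, Ddit4 or Hsd11b1. The fall was in Hsd11b2, the enzyme that inactivates glucocorticoid in the collecting duct: 2234, 2596, 2622 and 2569 at CT28 against 1364, 959, 1705 and 1046 at CT40. It was 1.97-fold lower, without overlap (adjusted p = 0.000957).

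Fatty acid oxidation genes rose in 13 of 21 tested and 0 fell, against 18.7% and 22% of all genes. Their median log2 difference was 0.53. The members that rose were the receptor PPAR alpha, its textbook targets and the carnitine step. Angptl4, a secreted lipase inhibitor and PPAR target, was at 190, 124, 138 and 177 at CT28 and at 670, 574, 1027 and 816 at CT40 (log2 difference 2.27 ± 0.27, adjusted p = 1.7e-06). Cpt1a, the gate of fatty acid entry into mitochondria, was at 3266, 3162, 3524 and 3785 at CT28 and at 6275, 6358, 9749 and 6066 at CT40 (1.02 ± 0.14). In both genes the groups did not overlap, and CT40 replicate 3 was the highest.

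The microsomal omega-hydroxylases Cyp4a10 and Cyp4a14, close copies that reads may not separate, rose by 1.79 and 2.36. Cyp4a10 had a mean of 149.75 ± 13.02 (SD) at CT28 and was at 660, 360, 1057 and 287 at CT40. Ppara itself rose by 0.88 and its coactivator Ppargc1a by 0.63. The core enzymes of the mitochondrial spiral had smaller values: Acadm 0.08 (adjusted p = 0.376), Hadha -0.01 (adjusted p = 0.931) and Hadhb 0.11, none of which passed, and Acadl 0.32, which did.

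**Figure D3:**
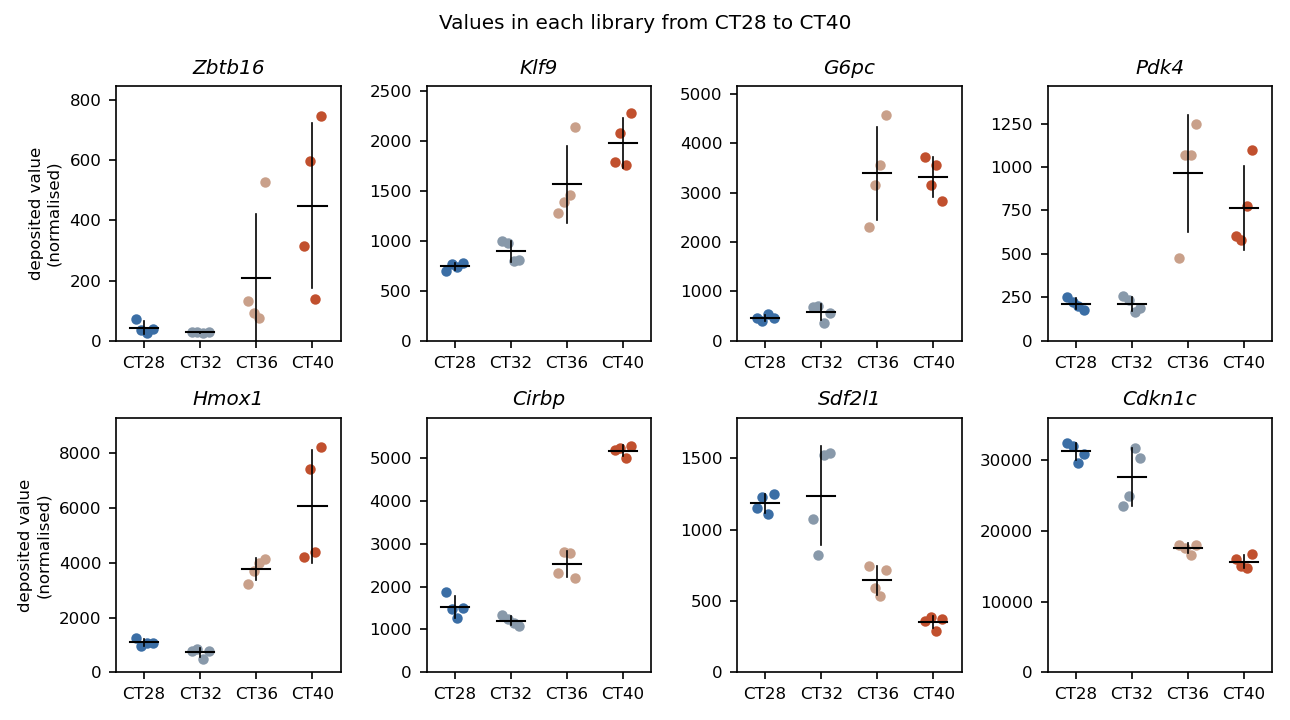
Deposited normalised value (y axis, from 0) of 8 genes in each library at CT28, CT32, CT36 and CT40, 4 libraries per time, with the mean (bar) and 1 SD (line). G6pc and Pdk4 are near their CT28 values at CT32 and high at CT36, Cirbp rises again from CT36 to CT40, and Cdkn1c and Sdf2l1 fall.

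Antioxidant, glutathione and haem genes rose in 11 of 20 tested and 0 fell, against 18.7% and 22% of all genes. Their median was 0.28. Hmox1 (ENSMUSG00000005413.8, chromosome 8, 75093621 to 75100589) was at 1259, 975, 1059 and 1081 at CT28 and at 4201, 7426, 4383 and 8231 at CT40. Every CT40 library was above every CT28 library, 5.54-fold by the means (log2 difference 2.41 ± 0.21, adjusted p = 1.12e-07). Gsta1 was at 36, 16, 40 and 36 at CT28 with a mean of 151.5 ± 21.8 (SD) at CT40, and Gclc, the catalytic subunit of glutathione synthesis, rose by 0.91. Nqo1, a quinone reductase, rose by 0.69 and Gpx3, the secreted glutathione peroxidase made by kidney tubules, by 0.90. Nfe2l2, the NRF2 factor that activates many of these genes, had 0.02 ± 0.06 (adjusted p = 0.845), and the classic enzymes Sod1, Sod2, Cat and Gpx1 lay between -0.05 and 0.06 without passing.

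The cold-inducible pair rose, and more heat shock genes fell than rose. Cirbp, an RNA-binding protein whose transcript is raised by mild cooling (ENSMUSG00000045193.13, chromosome 10, 80165985 to 80172786), was at 1862, 1485, 1258 and 1505 at CT28 and at 5168, 5226, 4983 and 5266 at CT40. This 3.38-fold rise had a log2 difference of 1.77 ± 0.09 (adjusted p = 3.03e-13), and the CT40 libraries lay close together. Rbm3, its paralog, rose by 0.43, with values between 9427 and 11852 at CT28 and between 13164 and 15127 at CT40. Of 19 heat shock and chaperone genes 10 fell and 3 rose, against 22% and 18.7% of all genes, and the list median was -0.18. With quantile scaling 5 rose.

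The 2 members with the largest falls were Chordc1, an HSP90 partner, and Hsph1, the HSP110 chaperone. Their promoters are shown because each carries the heat shock element, the binding site of HSF1 (searched on both strands as GAA, any 2 bases, TTC, any 2 bases and GAA; in capitals; 3 overlapping matches in Chordc1):

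Chordc1: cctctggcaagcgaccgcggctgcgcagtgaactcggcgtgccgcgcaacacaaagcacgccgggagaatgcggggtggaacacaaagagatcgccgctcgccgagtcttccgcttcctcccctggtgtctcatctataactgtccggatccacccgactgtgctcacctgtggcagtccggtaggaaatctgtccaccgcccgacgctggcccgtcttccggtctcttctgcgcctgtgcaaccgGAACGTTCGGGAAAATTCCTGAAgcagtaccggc
Hsph1: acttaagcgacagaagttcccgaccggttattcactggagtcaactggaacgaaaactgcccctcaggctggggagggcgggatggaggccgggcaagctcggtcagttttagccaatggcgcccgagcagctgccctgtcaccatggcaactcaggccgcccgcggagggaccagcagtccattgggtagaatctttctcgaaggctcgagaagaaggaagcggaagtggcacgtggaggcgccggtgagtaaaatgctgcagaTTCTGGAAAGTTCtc

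They are RefSeq promoters of GRCm38.p6, chr9:18292017-18292296 on the plus strand and chr5:149636286-149636565 on the minus strand, read 5′ to 3′. The element occurs in 0.603% of the 32851 promoters, or in 0.662% of genes, and in 4 of the 14 list genes found in the table (Chordc1, Hspd1, Hspe1 and Hsph1). Those 4 were all lower at CT40, by 0.91, 0.18, 0.52 and 0.87, in a list of which 10 of 19 tested members fell. Chordc1 and Hsph1 were chosen after their values were seen. For Hsph1 the promoter shown is 1 of 2 in the RefSeq table. The part of the element in these falls was not tested.

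Chordc1 was at 3278, 3133, 3178 and 3157 at CT28 and at 1913, 1426, 1874 and 1632 at CT40 (-0.91 ± 0.11, adjusted p = 3.84e-07). Hsph1 was at 3002, 3415, 4314 and 3984 at CT28 and at 1892, 2182, 2145 and 1791 at CT40 (-0.87 ± 0.13, adjusted p = 2.91e-05). Hsf1, the factor that drives the heat shock response, was at 1896, 1915, 2160 and 2041 at CT28 and at 1126, 1118, 1268 and 1228 at CT40 (-0.76 ± 0.07, adjusted p = 1.82e-08). All 3 were lower without overlap. Hspa8, Stip1, Fkbp4, Ahsa1 and Hsp90aa1 fell by 0.33 to 0.62. The 3 members that rose were the stress-inducible pair Hspa1a and Hspa1b (0.58 each, near-identical copies, with overlapping groups) and the small heat shock protein Cryab (0.45).

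Of 18 tested genes of the integrated stress and unfolded protein responses 7 were lower and 3 higher, against 22% and 18.7% of all genes. The other 8 did not pass, and the list median was -0.03. All but 1 of the 7 lower genes (Sdf2l1, Pdia4, Hspa5, Creld2, Hyou1 and Xbp1) belong to the unfolded protein response. The promoters of Hspa5, which encodes the chaperone BiP, and of Creld2, an oxidoreductase-like resident of the reticulum, are shown because they hold the ER stress response element to which ATF6 binds (searched on both strands as CCAAT, any 9 bases and CCACG; in capitals). These genes were chosen for the motif after their values were seen:

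Hspa5: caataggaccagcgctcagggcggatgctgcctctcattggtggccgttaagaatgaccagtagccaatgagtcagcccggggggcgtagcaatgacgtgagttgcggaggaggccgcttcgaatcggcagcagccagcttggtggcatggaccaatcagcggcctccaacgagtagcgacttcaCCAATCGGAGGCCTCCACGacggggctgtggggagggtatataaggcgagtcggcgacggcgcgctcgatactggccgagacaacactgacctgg
Creld2: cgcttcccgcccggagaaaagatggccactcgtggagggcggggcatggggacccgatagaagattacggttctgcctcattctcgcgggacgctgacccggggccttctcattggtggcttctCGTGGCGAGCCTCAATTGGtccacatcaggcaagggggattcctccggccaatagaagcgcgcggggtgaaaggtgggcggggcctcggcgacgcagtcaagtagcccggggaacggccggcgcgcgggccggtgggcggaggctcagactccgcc

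Both come from RefSeq on GRCm38.p6, chr2:34771840-34772119 and chr15:88819396-88819675, each on the plus strand. In Creld2 the match is on the opposite strand, so its capitals read as the reverse complement. The element occurs in 0.119% of the 32851 promoters, or in 0.137% of genes, and, of the 17 list genes found in the table, in these 2.

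Hspa5 was at 28633, 30844, 33931 and 33448 at CT28 and at 18482, 18606, 19996 and 18459 at CT40 (-0.75 ± 0.08, adjusted p = 4.76e-08). Creld2 was at 2448, 2453, 2354 and 2585 at CT28 and at 1738, 1610, 1580 and 1744 at CT40 (-0.56 ± 0.07, adjusted p = 4.95e-07). Sdf2l1, a BiP cofactor, had the largest fall of the list, from 1156, 1229, 1109 and 1248 to 360, 392, 293 and 375, 3.34-fold. All 3 were lower in every CT40 library than in any CT28 library. Pdia4, a disulfide isomerase, fell by 0.78, and Xbp1, a transcription factor of the response, by 0.50. Phgdh, of serine synthesis, fell by 0.27. The members that rose were Sesn2 (0.78), a stress-induced inhibitor of mTORC1 signalling, Herpud1 (0.69), a component of ER-associated degradation, and Atf4 (0.27), the factor of the integrated stress response. Trib3, Chac1, Asns and Ddit3, known ATF4 targets, did not pass, with values from -0.19 to 0.69.

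Cell cycle genes fell. DNA replication genes were lower in 17 of 18 tested, with a median log2 difference of -0.54, and mitosis genes in 15 of 18, with a median of -0.39, against 22% of all genes lower. Pola1, the catalytic subunit of DNA polymerase alpha (ENSMUSG00000006678.6, chromosome X, 93304767 to 93632155), was at 2138, 2292, 2073 and 2182 at CT28 and at 841, 855, 1018 and 1190 at CT40 (-1.17 ± 0.10, adjusted p = 7.26e-09). Tyms, which makes thymidylate, was at 2991, 3332, 2828 and 3169 at CT28 and at 1532, 1321, 1618 and 1569 at CT40 (-1.03 ± 0.12). Cdc6, a loader of the replicative helicase, fell by 0.84 and Rrm2, of the ribonucleotide reductase, by 0.74. In each the groups stood apart. All 6 subunits of the MCM helicase fell, by 0.28 (Mcm7) to 0.60 (Mcm5), and Cdt1 was the 1 member that did not pass (-0.22, adjusted p = 0.0679).

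Among mitosis genes, Ube2c, an enzyme of the anaphase-promoting complex, was at 4492, 4719, 4457 and 4367 at CT28 and at 2875, 2886, 2388 and 3332 at CT40 (-0.66 ± 0.11, adjusted p = 4.43e-05). Bub1, a checkpoint kinase, fell by 0.60, Birc5, survivin, by 0.52, and Mki67, the proliferation antigen, by 0.32, each without overlap. Aurkb (-0.03), Cdc20 (-0.10) and Kif11 (-0.18) did not pass.

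Tubule segments differed in which of their genes moved. The proximal tubule is the site of bulk reabsorption and renal gluconeogenesis. There 10 of 30 members rose and 3 fell, against 18.7% and 22% of all genes, with a median of 0.15. Beside G6pc, Pck1, which commits carbon to gluconeogenesis, was at 2882, 2666, 3568 and 3608 at CT28 and at 13035, 9945, 8717 and 9682 at CT40 (1.70 ± 0.25, adjusted p = 3.46e-05). Slc6a19, the neutral amino acid transporter, was at 236, 218, 215 and 262 at CT28 and at 522, 621, 673 and 466 at CT40 (1.28 ± 0.18). Hnf4a, a transcription factor of the segment, rose by 0.49. The gluconeogenic enzymes and Slc6a19 separated the groups completely. Fbp1, the enzyme between them in the pathway, had 0.22 ± 0.10 with overlapping groups (adjusted p = 0.0802).

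Other proximal transporters did not pass or fell. The endocytic receptors Lrp2 and Cubn had -0.03 and -0.10, the organic anion transporter Slc22a6 had 0.09 and the phosphate transporter Slc34a1 had -0.29 (adjusted p = 0.0713), none past the threshold. Slc5a2, the glucose transporter SGLT2, fell by 0.27 and Slc22a12, the urate transporter, by 0.51. Ass1, of arginine synthesis, had the lowest value, -2.24 ± 0.71 (adjusted p = 0.0154), from 42, 64, 47 and 80 to 7, 9, 9 and 26, all low on the deposited scale.

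Of 17 tested genes of the loop of Henle and the distal tubule 9 rose and 0 fell (median 0.28). The shares of all genes were 18.7% and 22%. Those that rose included the calcium and magnesium handling genes of the distal convoluted tubule: Calb1, a calcium buffer, was at 5945, 5892, 6438 and 6108 at CT28 and at 10318, 14113, 10557 and 13592 at CT40 (0.98 ± 0.16, adjusted p = 6.93e-05). The calcium channel Trpv5 rose by 0.70 without overlap. The magnesium channel Trpm6 rose by 0.65 with overlap, and did not pass without CT28 replicate 1 (0.47, adjusted p = 0.0687). Umod, uromodulin of the thick ascending limb, rose by 0.58 and Slc12a3, the thiazide-sensitive cotransporter, by 0.44. The loop transporters Slc12a1 (-0.11) and Kcnj1 (-0.07) did not pass.

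Collecting duct principal cell genes rose in 6 of 12 and fell in 2, against 18.7% and 22% of all genes (list median 0.34). Scnn1a, the alpha subunit of the epithelial sodium channel ENaC, was at 957, 972, 1138 and 1014 at CT28 and at 2183, 3339, 1891 and 3072 at CT40 (1.32 ± 0.19, adjusted p = 1.96e-05). Scnn1g, the gamma subunit, rose by 0.57, and Scnn1b, the beta subunit, had 0.10 ± 0.07 with overlapping groups (adjusted p = 0.251). The 3 subunits of 1 channel therefore had unequal values. Slc14a2, the urea transporter, was at 185, 199, 226 and 185 at CT28 and at 468, 1050, 595 and 751 at CT40 (1.78 ± 0.20). The water channel Aqp2, which vasopressin regulates, was at 7035, 7100, 7081 and 7445 at CT28 and at 11528, 16806, 10707 and 13755 at CT40 (0.86 ± 0.17, adjusted p = 0.00059). Aqp3 and Aqp4, of the basal membrane, rose by 0.73 and 0.64. The vasopressin receptor Avpr2 had -0.26 and did not pass, and Fxyd4, a regulator of the sodium pump, fell by 0.60. The other fall was Hsd11b2, counted above in the glucocorticoid list too.

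Of 11 intercalated cell genes 3 rose and 2 fell, near the shares of all genes (18.7% higher and 22% lower). The ammonia transporter Rhbg fell by 0.85 and the proton pump subunit Atp6v1b1 by 0.69, both without overlap. Slc26a4, pendrin of the bicarbonate-secreting type, rose by 0.63 and did not pass without CT40 replicate 3 (adjusted p = 0.0671), CT40 replicate 4 (0.0513) or CT28 replicate 1 (0.0642). The count of rises was 1 without CT40 replicate 3 or CT28 replicate 1.

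Glomerular and matrix genes rose in part. Of 16 podocyte genes 8 rose and 3 fell, against 18.7% and 22% of all genes (list median 0.16). Col4a3 and Col4a4, collagens of the mature glomerular basement membrane, led: Col4a3 was at 1412, 1565, 1649 and 1634 at CT28 and at 2659, 2913, 3734 and 2523 at CT40 (0.90 ± 0.12, adjusted p = 4.89e-06), and Col4a4 rose by 0.87. Cd2ap, a slit diaphragm adaptor, rose by 0.37. Nphs1, the slit diaphragm protein nephrin, had -0.19 and did not pass (adjusted p = 0.0654), and Synpo, synaptopodin of the foot process, fell by 0.30. Falls numbered 1 without CT40 replicate 1 or CT28 replicate 3.

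Extracellular matrix genes rose in 11 of 24 and 0 fell, against 18.7% and 22% of all genes (list median 0.20). They included the basement membrane collagens Col4a1 and Col4a2 (0.38 and 0.52), Nid1, which links collagen to laminin (0.51 ± 0.07, with values of 14210 to 14893 at CT28 and 19659 to 23176 at CT40), and Fbln2, fibulin-2 (0.66). Endothelial genes rose in 8 of 16 and 0 fell, against the same shares (list median 0.18). Robo4, an endothelial guidance receptor, rose by 0.53, with values of 1241 to 1349 at CT28 and 1728 to 1967 at CT40. Pecam1, Flt1 and Emcn, equally typical of endothelium, had 0.07, -0.10 and -0.13 and did not pass. Rises numbered 5 without CT40 replicate 3 and 4 without CT28 replicate 1.

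Macrophage genes rose in 6 of 13 and 0 fell, against 18.7% and 22% of all genes (list median 0.20). Csf1r, the receptor these cells depend on, was at 1075, 1320, 1266 and 1241 at CT28 and at 1852, 2046, 2274 and 1702 at CT40 (0.68 ± 0.12, adjusted p = 4.76e-05). The complement genes C1qa, C1qb and C1qc rose by 0.30 to 0.35, while Mrc1, Lyz2 and Cx3cr1 had -0.12 to -0.30 without passing. Ctss, cathepsin S, rose by 0.45 and Fcgr3, an Fc receptor, by 0.40, and Fcgr3 did not pass without CT40 replicate 2 (0.31, adjusted p = 0.112) or CT28 replicate 3 (0.32, adjusted p = 0.0971). The list had 3 rises without CT40 replicate 3 or without CT28 replicate 4.

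Of 13 tested genes of nephron progenitors 6 fell and 2 rose, against 22% and 18.7% of all genes (list median -0.17). Crym, a thyroid hormone binding protein enriched in these cells, was at 1272, 1399, 1545 and 1379 at CT28 and at 734, 720, 667 and 734 at CT40 (-0.97 ± 0.10, adjusted p = 5.78e-08). Cited1, which marks the least committed progenitors, fell by 0.43 and Six2, which maintains them, by 0.28, both without overlap. Meox1 fell by 0.58 and Dkk1, a Wnt inhibitor, by 0.53. The progenitor regulators Sall1, Eya1 and Gdnf had -0.02, -0.03 and -0.11 and did not pass, and Itga8, the integrin through which progenitors meet the ureteric bud, rose by 0.32. Without CT40 replicate 2 the list had 1 rise.

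Of 16 early nephron genes 4 were higher and 5 lower, near the shares of all genes (18.7% and 22%). Beside Hes5, the Notch target Hey1 fell by 0.37 and the inducer Wnt4 by 0.21, and Irx2 and Irx3, factors of the intermediate tubule, rose by 0.43 each. Falls numbered 3 without any 1 of CT40 replicates 1 and 4 and CT28 replicates 1, 2 and 4. Ureteric bud tip genes rose in 5 of 12 and fell in 1, against those same shares. Spry1, a brake on RET signalling, was at 3585, 3472, 3469 and 3760 at CT28 and at 4581, 5763, 5147 and 4370 at CT40, a rise of 0.47. Ret itself had 0.06, Wnt11 0.11 and Etv4 0.10, none past the threshold. Sox8 rose by 0.59 with overlap, and did not pass without CT40 replicate 1 (0.50, adjusted p = 0.0783), CT40 replicate 2 (0.48, adjusted p = 0.0927), CT28 replicate 1 (0.51, adjusted p = 0.074) or CT28 replicate 4 (0.54, adjusted p = 0.0602). The 1 fall (Cxcr4) became 2 without CT40 replicate 2 and 0 without CT40 replicate 4.

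In the stroma 5 of 16 genes fell and 3 rose, where 22% and 18.7% of all genes did, with a median of -0.12. The smooth muscle genes Acta2 and Tagln fell by 0.48 and 0.60 and Lum, lumican, by 0.80. These 3 calls were lost when 1 of several libraries was left out: adjusted p reached 0.0921 for Acta2 and 0.0806 for Lum without CT28 replicate 1, and 0.0639 for Tagln. Without CT40 replicate 2, Acta2 and Lum had 0.0673 and 0.0566; without CT40 replicate 3, Tagln had 0.0522; and without CT40 replicate 4, Acta2 had 0.0634. Falls in the list numbered 3 without CT40 replicate 2 or 3 and 2 without CT28 replicate 1, and rises 1 without CT40 replicate 3 or CT28 replicate 2. Tcf21, a stromal transcription factor, fell by 0.38, and Foxd1, the marker of stromal progenitors, rose by 0.28 with adjusted p = 0.0498.

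Imprinted and fetal growth genes fell in 7 of 13 and rose in 2, against 22% and 18.7% of all genes (list median -0.29). Cdkn1c, an imprinted inhibitor of the cell cycle (ENSMUSG00000037664.13, chromosome 7, 143458339 to 143461050), was at 32371, 32019, 29644 and 30933 at CT28 and at 16061, 15068, 14795 and 16718 at CT40. It was 1.99-fold lower with a narrow spread in both groups (it fell by 1.00 ± 0.07 on the log2 scale, adjusted p = 2.9e-10). Igf2, the fetal growth factor, was at 61013, 61211, 61556 and 62071 at CT28 and at 39357, 39757, 38822 and 41560 at CT40 (-0.62 ± 0.06, adjusted p = 2.37e-08). Hmga2, a chromatin protein of fetal cells, and Igf2bp1, an RNA-binding protein of fetal cells, fell by 0.29 and 0.20. Peg3, also imprinted, went the other way, from a mean of 11676 to 18628 (0.67 ± 0.12).

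Splicing factors of the SR family fell in 7 of 17 tested and 1 rose, against 22% and 18.7% of all genes (median -0.12). Tra2a was at 5769, 6024, 5612 and 5584 at CT28 and at 2911, 2528, 3024 and 3004 at CT40 (-1.01 ± 0.12, adjusted p = 7.25e-07). Srsf7 and Srsf10 fell by 0.85 and 0.68, and none of these 3 overlapped. The CLK kinases, which phosphorylate SR proteins, did not pass, with values from -0.12 to 0.10. Rises numbered 2 without CT40 replicate 3.

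Hypoxia and glycolysis genes fell in 11 of 23 and rose in 1, against 22% and 18.7% of all genes (list median -0.29). Ankrd37, a target of hypoxia-inducible factor, was at 594, 555, 636 and 425 at CT28 and at 260, 158, 234 and 169 at CT40 (-1.44 ± 0.17, adjusted p = 2.31e-07). Ldha, which makes lactate, was at 30347, 33283, 40304 and 32869 at CT28 and at 23458, 21008, 21538 and 19490 at CT40 (-0.67 ± 0.11), and Pfkl, a phosphofructokinase, fell by 0.90. Egln3 and Pdk1, further targets of the factor, fell by 0.59 and 0.49. The 1 rise was Ndrg1, which hypoxia and other stresses induce, from a mean of 8589 to 20727 (1.26 ± 0.21), and Gapdh had -0.11 (adjusted p = 0.191).

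Oxidative phosphorylation genes had a median nearer 0: 7 of 25 fell and 2 rose, against 22% and 18.7% of all genes, with a median of -0.05 and the largest fall in Ndufa2, of complex I (-0.42). Falls numbered 2 without CT40 replicate 2, 3 without CT28 replicate 1, 4 without CT28 replicate 2 and 11 without CT40 replicate 1. Rises numbered 0 without CT40 replicate 3, CT28 replicate 1 or CT28 replicate 2, and 1 without CT40 replicate 1. Ndufa1 (-0.29) lost its call without any 1 of CT40 replicates 2 and 3 and CT28 replicates 1 and 2, with adjusted p from 0.0581 to 0.0813. Ribosomal protein genes were lower in 19 of 27, against 22% of all genes, with a median of -0.22. But with quantile scaling 2 were lower. Rps9 and Rplp1, at -0.30 each, had -0.13 and -0.12 with that scaling and did not pass. Over the tested genes with a transcript sequence, the CT40 minus CT28 difference had a Spearman correlation of 0.20 with the length of the longest transcript. The quintiles with the shortest and longest transcripts had medians of -0.14 and 0.07.

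Cholesterol and fatty acid synthesis genes fell in 11 of 23 and rose in 1, against 22% and 18.7% of all genes (median -0.22). Scd2, a desaturase, was at 54853, 67768, 65648 and 59396 at CT28 and at 38530, 48079, 25658 and 44591 at CT40 (-0.69 ± 0.17), and Dhcr7, the last enzyme of cholesterol synthesis, fell by 0.60. Srebf2, a transcription factor that controls the pathway, had -0.10 and did not pass. Among 18 immediate early genes 3 rose and 1 fell, no more than the shares of all genes (18.7% and 22%). Klf4, a differentiation factor, rose by 1.00, Ier3 by 0.60 and Fosl2 by 0.49, while Fos, Jun and Egr1 had -0.20, -0.07 and -0.08. The 1 fall, Myc (-0.27), did not pass without CT40 replicate 1, when falls numbered 0.

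Of 19 interferon-stimulated genes tested 3 passed the threshold, a smaller share than the 40.7% of all genes. Ifi27l2a was at 146, 218, 390 and 173 at CT28 and at 771, 642, 725 and 444 at CT40 (1.55 ± 0.33, adjusted p = 0.00093). Ifit3 (0.57) did not pass without CT40 replicate 1, 2 or 4 or CT28 replicate 1 or 4, with adjusted p from 0.056 to 0.152. Bst2 (-0.42) did not pass without CT40 replicate 3 or CT28 replicate 2 or 3, with adjusted p from 0.0644 to 0.0884. Rises numbered 1 in the first set, and falls 0 in the second and 2 without CT28 replicate 4. The 2 tested noncoding RNAs and the 4 sex-linked genes did not pass. Kdm5d, on the Y chromosome, had -0.48 (adjusted p = 0.129), and without CT40 replicate 1 it passed (-0.65, adjusted p = 0.0482).

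Markers of neighbouring tissue moved in some libraries. Of 10 liver genes 4 rose and 0 fell (median 0.66), against 18.7% and 22% of all genes. Their summed values were 8258 to 9814 at CT28 and 9746 to 15820 at CT40. Rises numbered 2 without CT40 replicate 1 or CT40 replicate 3. Ttr, transthyretin, was at 1257, 1291, 1248 and 1148 at CT28 and at 4736, 1504, 2481 and 1436 at CT40, and did not pass without CT40 replicate 1 (0.50, adjusted p = 0.0754) or CT40 replicate 3 (0.81, adjusted p = 0.0524). Fgb, the fibrinogen beta chain, rose by 1.18 without overlap, as did Fga above, while Alb, albumin, had 1.44 with overlapping groups (adjusted p = 0.201). Ahsg (2.35) lost its call without any 1 of 6 libraries (all but CT28 replicates 1 and 4), with adjusted p from 0.0589 to 0.172. Of 10 skeletal muscle genes 3 rose, Myh8, Myl1 and Acta1, and 1 fell, Actn3, against those same shares. Rises numbered 0 without CT40 replicate 3. Myl1 then had 2.25 (adjusted p = 0.0526) and Acta1 1.28 (adjusted p = 0.151). Acta1 also did not pass without CT40 replicate 4 (0.0543), CT28 replicate 2 (0.1) or CT28 replicate 3 (0.0982).

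Of 4 tested adrenal genes Star rose by 0.59 and did not pass without CT40 replicate 2 (0.44), CT40 replicate 3 (0.58), CT28 replicate 2 (0.51) or CT28 replicate 4 (0.46), with adjusted p from 0.0507 to 0.124. In the erythroid list Klf1 rose by 0.97 and the other 4 members did not pass. Without CT40 replicate 2 (0.83, adjusted p = 0.0562) or CT28 replicate 1 (0.79, adjusted p = 0.0573) Klf1 did not pass either, and without CT40 replicate 2 the list had 1 fall. Inha rose by 0.52 among 6 gonad genes, 2 of which rose without CT40 replicate 1. No adipose gene (2 tested) and no pancreas and gut gene (3 tested) passed. Vil1 of the last list had -0.25 and passed without CT40 replicate 3 (adjusted p = 0.0492) or CT28 replicate 2 (0.0465). Myh8 was at 0 in CT28 replicates 2 and 3, and Ahsg and Alb were above 0 in all 8 libraries. The part of such tissue in the kidney results was not tested.

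The change was not spread evenly over the 12 h. Of the tested genes 17 (0.118%) differed between CT32 and CT28, 5023 (34.8%) between CT36 and CT32 and 2559 (17.7%) between CT40 and CT36, in the same model. At CT36, 5437 genes (37.7%) differed from CT28. Library totals also stepped between CT32 (35401651 to 35711911) and CT36 (34233327 to 34925644), without overlap. The part of that step in these counts was not tested. For a gene called in CT40 against CT28, the median share of its difference already present was 9.96% at CT32 and 72.8% at CT36. These steps share libraries with each other and with the pair compared. Of the 4 CT36 libraries 1 carries another ID prefix than the rest, for which the labels give no reason.

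Gene groups took different courses. G6pc had means of 465, 576, 3389 and 3311 at CT28, CT32, CT36 and CT40, and Pdk4 213, 212, 964 and 764, so of these 4 times both were highest at CT36. Both means were higher again at CT44 and CT48. Per1, in contrast, had 1238, 1476, 1680 and 3262, and Tef 2065, 2082, 2072 and 3202. Cirbp had 1528, 1208, 2526 and 5161. Hspa5, still at a mean of 30337 at CT36 against 31714 at CT28, was at 18886 at CT40, and Hsph1 went from 3655 at CT36 to 2002 at CT40. The course plot shows 8 such genes with each library.

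Over whole lists, relative to CT28, the clock had medians of 0.09, 0.29 and 0.58 at CT32, CT36 and CT40, and the glucocorticoid list 0.05, 0.43 and 0.63. Fatty acid oxidation had 0.14, 0.71 and 0.53. Mitosis had -0.16, -0.69 and -0.39, while DNA replication had -0.04, -0.30 and -0.54. Among these times the mitosis list was lowest at CT36 and the replication list at CT40. Of the later medians, mitosis at CT48 (-0.81) and replication at CT44 (-0.60) were lower still. Mitosis at CT44 (-0.58) and replication at CT48 (-0.29) were not. The hypoxia and glycolysis list stood at 0.37 at CT32 before -0.26 and -0.29. At CT48 the clock median was 0.51 and the fatty acid oxidation median 0.78.

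**Figure D4:**
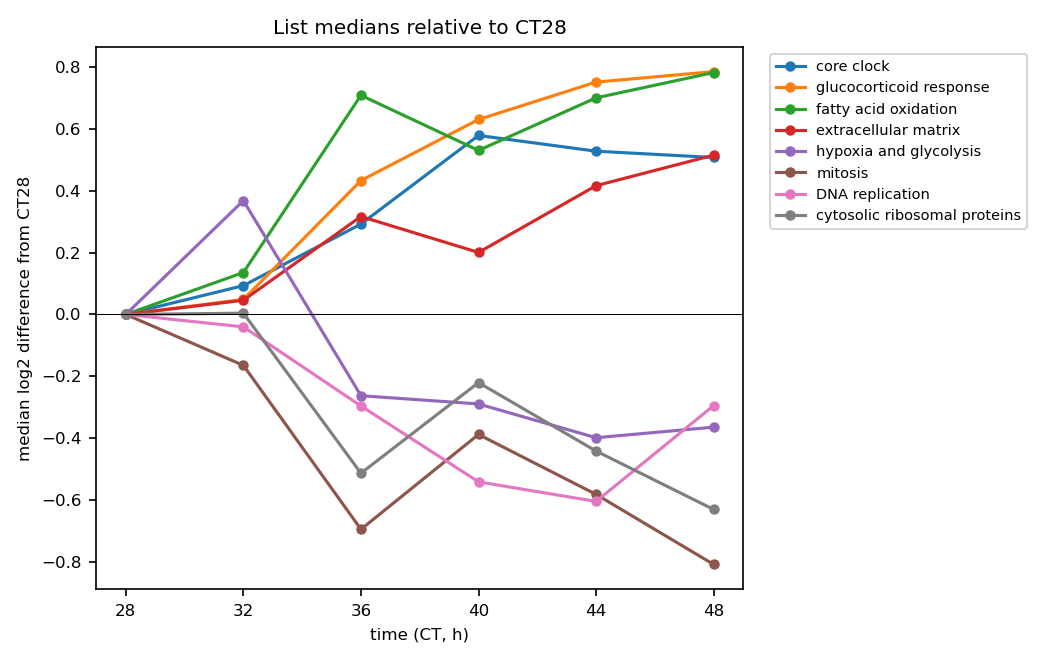
Median log2 difference from CT28 (y axis) of the tested members of 8 lists at CT28, CT32, CT36, CT40, CT44 and CT48 (x axis, hours), each point from 4 libraries per time. Lists separate between CT32 and CT36, and the mitosis and DNA replication medians differ in when they are lowest (CT48 and CT44).

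The same clock times a day earlier, CT16 against CT4, were compared in the same way. On embryonic day 18, 746 genes differed (5.17%; 344 higher, 2.38%, and 402 lower, 2.79%), with a median absolute log2 difference of 0.06 over all tested genes, against 0.22 on day 19. The difference between the days itself passed for 5128 genes (35.5%; 2385 higher and 2743 lower on day 19). Called on both days were 351 genes, of which 222 had the same sign and 129 opposite signs. They were 47.1% of the day 18 calls, where 40.7% of all tested genes were called on day 19. They were 5.98% of the day 19 calls, where 5.17% of all tested genes were called on day 18. Signs were the same in 63.2% of the 351 and in 51.7% of all tested genes. CT4 and CT16 belong to the first library series and CT28 and CT40 to the second, and libraries of the second series spread more (median SD of 0.136 on the log2 scale, against 0.0748 in the first). What the series and the day each contribute to the difference cannot be told apart.

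Clock genes showed that difference. On day 18, 0 of 19 rose and 2 fell, Dbp (-0.24, adjusted p = 0.043) and Nfil3 (-0.23, adjusted p = 0.032), with a median of -0.04. Of all genes 2.38% rose and 2.79% fell on that day. The difference between the days passed for 15 of 19, all higher on day 19, against 16.5% of all genes. Per1 had -0.31 on day 18, so that the days differed by 1.71 ± 0.29 (adjusted p = 2.3e-05), and Arntl had 0.05, a difference of 0.70 ± 0.14 (adjusted p = 9.2e-05). The differences of Npas2, Cry1 and Nr1d2 did not pass without CT40 replicate 2 (adjusted p of 0.0564, 0.0665 and 0.0526). Those of Npas2 (0.0765) and Bhlhe41 (0.05) did not pass without CT28 replicate 4.

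The largest differences between the days were, but for Cyp24a1, of genes already named. Zbtb16 had -0.17 on day 18 (difference 3.33 ± 0.76), G6pc 0.02 (2.81 ± 0.35), Hmox1 -0.38 (2.79 ± 0.36) and Cyp24a1, the enzyme that degrades active vitamin D, -0.58 (2.41 ± 0.43). On day 19 Cyp24a1 was at 730, 686, 939 and 872 at CT28 and at 5092, 2151, 1583 and 3759 at CT40, a rise of 1.83 ± 0.34 without overlap. At the other end were Vip (0.57 on day 18, difference -2.88 ± 0.60), Sdf2l1 (0.44, -2.18 ± 0.19), Rmi2 (0.20, -2.18 ± 0.23) and Katnal2 (-0.06, -2.17 ± 0.37).

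Some heat shock and ER chaperone genes rose on day 18 and fell on day 19. On day 18, 9 of 19 heat shock genes rose and 0 fell (median 0.14), against 2.38% and 2.79% of all genes. In the difference between the days 11 were lower, against 19% of all genes. Hsph1 rose by 0.50 on day 18 (adjusted p = 0.00015) and Hspa5 by 0.38 (adjusted p = 1.3e-05), both lower on day 19. Of the 18 stress response genes 8 rose on day 18 and 1 fell, against the same 2.38% and 2.79%. The cholesterol list fell on both days: 10 of 23 on day 18 and 11 on day 19, against 2.79% and 22% of all genes. In the difference 4 were lower and 3 higher, against 19% and 16.5% of all genes. That count of 4 was 1 or 2 without 10 single libraries of the 4 groups. Aqp2 rose by 0.91 on day 18 and by 0.86 on day 19, a difference of -0.06 (adjusted p = 0.85), and Ifi27l2a by 1.21 and 1.55. Replication and mitosis genes passed on day 18 in 0 of 18 and 0 of 18, where 5.17% of all genes passed. In the difference 17 and 13 of them were lower, against 19% of all genes.

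**Figure D5:**
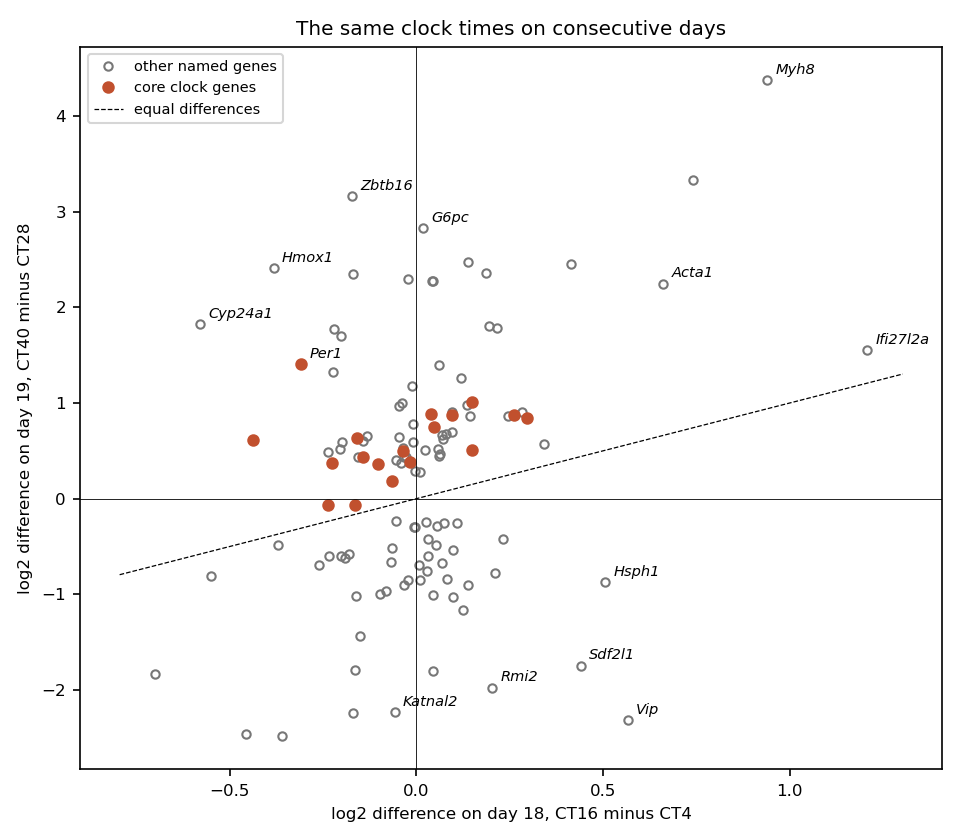
Log2 difference CT40 minus CT28 on embryonic day 19 (y axis) against CT16 minus CT4 on embryonic day 18 (x axis) for the named genes reported here, each point from 4 libraries per time; the dashed line marks equal differences. Most core clock genes (filled) lie above the line, and Sdf2l1 and Hsph1 lie to the right of 0 and below it.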

How the data were processed

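Poly-A RNA of whole kidneys was sequenced from TruSeq libraries on HiSeq instruments, per the labels' protocols. The submitters' processing notes name STAR 2.5.2b, featureCounts 1.5.0-p3 and the mm10 build. The gene annotation, strand setting and normalisation were not given in the sources used here. Close copies and overlapping genes are uncertain. Although its name speaks of counts, the authors' deposited table holds scores, that is, values normalised and then rounded, as read from the nearly equal library totals. Gene means of the 2 library series were nearly equal (SD of the log2 difference 0.0325 over 12274 genes), so comparisons stay within a series. Depth is unknown, and no counting interval was computed.

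Differences were fitted here with limma 3.58.1 (R 4.3.3) on log2(value + 1), with trend and robust moderation, for 14426 of 16099 genes whose mean over 51 libraries reached 10. The model for CT40 against CT28 and the 4 h steps held the 24 libraries from CT28 to CT48, with 1 mean per time. Differences between the days and CT16 against CT4 used all 51, with weights per library series. Tests were two-sided, with Benjamini-Hochberg adjusted p under 0.05 over all genes tested. The scale understates changes of low genes. Scripts were tested on simulated data. A fold is the ratio of group means of the deposited values.

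Named genes are the tested clock genes, the 8 largest rises and falls and the 4 largest differences between days in each direction (past the threshold, CT40 and CT28 not overlapping, mean no less than 2 per 1e6 of a library's total, no predicted, pseudogene or sex-linked gene), and up to 3 members of each list past the threshold with the largest difference, or the member with the smallest p. The lists hold 589 genes, and some members counted in them are not reported here by name. Other list members were named after their values were seen, and the members and lists were chosen with earlier results of these data known. Coordinates are GENCODE M21 on GRCm38, the build also called mm10. The authors' other table, of rhythm tests, was not used here. Alternatives were another pseudocount, filter, scaling, moderation and set of libraries, weights per library, the replicate block and each replicate left out.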

Additional observations from a re-analysis of the deposited data

Results flagged for a closer look

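Of 250 sets of 4 values examined (the named genes at CT28 and at CT40), 21 (8.4%) had 1 library far from the other 3, where chance gives about 5%. At CT28 the value apart was Nfil3 667, Tmem252 1514, Gsta1 16, Trpv5 713, Hsd11b2 2234, Rhbg 772, Lum 2151, Fbln2 818, Ndufb10 4518 and Fabp4 9312. At CT40 it was Myh8 612, Myl1 274 and Acta1 956, all in replicate 3, and Wdr78 216, Hes5 28, Klf4 1185, Fosl2 3448, Ass1 26, Ctss 471, Fcgr3 450 and Klf1 67.

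The CT40 minus CT28 difference of the genes given here differed from the CT16 minus CT4 difference in the test of the difference itself (limma, adjusted p under 0.05). On the log2 scale the clock genes had Per1 1.71, Bhlhe41 1.05, Hlf 0.86, Per2 0.85, Tef 0.79, Rora 0.77, Arntl 0.70, Npas2 0.61, Nfil3 0.60, Per3 0.58, Clock 0.53, Cry2 0.47, Nr1d2 0.40 and Cry1 0.36. The genes with the largest differences had Zbtb16 3.33, G6pc 2.81, Hmox1 2.79, Cyp24a1 2.41, Vip -2.88, Sdf2l1 -2.18, Rmi2 -2.18 and Katnal2 -2.17. What the day and the library series each contribute cannot be told apart.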

How the results depend on the processing

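The count of genes called in CT40 against CT28 lay from 4970 (without CT40 replicate 2) to 7745 (all 51 libraries in the model) over the alternatives run, within 1.5 times 5870, and from 4970 to 5713 with 1 replicate left out. The count for the difference between the days lay from 4235 to 5364. With median-of-ratios scaling 2952 genes were higher and 2922 lower, and with quantile scaling 2998 and 2879. No named gene reversed its sign past the threshold. Among the named genes, 25 changed their call in CT40 against CT28 under at least 1 alternative, and of 27 examined for the days 4 did. Under alternatives other than leaving out a library, Acta2 did not pass with quantile scaling (adjusted p = 0.0913), Ahsg with all 51 libraries (0.0586) or the replicate block (0.0656), and Ttr (0.124) and Acta1 (0.11) with only CT28 and CT40. Ifit3 had adjusted p from 0.0518 to 0.0979 in 4 such alternatives, and Vil1 passed with all 51 libraries (0.0397).

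Whether replicate numbers pair the samples is not given in the labels. Deviations of same-numbered CT40 and CT28 libraries correlated at -0.044, -0.0058, 0.032 and -0.010. These values do not show pairing, but they cannot exclude it. With the replicate block 6036 genes were called, and 5364 for the difference between the days. Depth is unknown, so precision rests on the spread of 4 libraries per group.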
